A study of Homo sapiens with 6 samples.

Results

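Transcripts of the MYC family, of their partner MAX and of the MAX-binding repressors were measured in 6 human neuroblastoma cell lines. The 10 genes were MYC, MYCN, MYCL1, MAX, MXD1, MXD3, MXD4, MXI1, MNT and MGA, and they were taken as the rows of the deposited table whose gene names hold one of these symbols. Each gene had 1 row, out of 16223 loci with a gene name and 19170 loci in all. Neuroblastoma is a childhood tumor of the sympathetic nervous system, and these are established lines grown in culture. BE(2)-C, CHP134, Kelly and SK-N-DZ are MYCN-amplified, and SK-N-AS and SY5Y (the label's short name for SH-SY5Y) are MYCN-non-amplified. The MYCN status of each line was taken from the study's methods, since the labels give the line alone. RPMI with added L-glutamine was the medium of Kelly and CHP134 and DMEM that of the other 4 lines, both with fetal calf serum. Among the DMEM lines, SK-N-DZ and SK-N-AS also had non-essential amino acids, and no line was treated. One library of ribosome-depleted RNA was sequenced per line, so that the lines are the replicates and every test measures the spread between lines.

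MYC proteins bind DNA as pairs with MAX, and such pairs activate genes through E-box sequences. MXD proteins, MNT and MGA also pair with MAX and occupy E-boxes, where MXD proteins and MNT recruit SIN3 corepressors and MGA belongs to a Polycomb complex. The 3 MYC paralogs have largely shared functions but different tissue patterns, with MYCN active in the developing nervous system. Amplification of MYCN marks an aggressive form of neuroblastoma, and MYC and MYCN proteins can each repress transcription of the other gene and of their own.

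Values were read as FPKM (fragments scaled to exon length and to the mapped total), a scale on which levels of different genes can be compared within a line. Sums over all loci ran from 777111 to 1305116 FPKM, highest in SK-N-AS. Read numbers are unknown, and counting errors are therefore not given. All 12 neuroblastoma markers, among them HAND2 and GATA3, had a locus, and 10 to 12 of them reached 1 FPKM in each line. Their summed levels were 437 to 1970 FPKM in the MYCN-amplified lines, 339 FPKM in SK-N-AS and 976 FPKM in SY5Y. TH, the first enzyme of catecholamine synthesis, reached 1 FPKM in Kelly only. Of 12 markers of other cell types, 6 had a locus, with summed levels of 5.03 to 20.5 FPKM in the MYCN-amplified lines, 128.7 FPKM in SK-N-AS and 15.9 FPKM in SY5Y. The sum in SK-N-AS came mainly from PTPRC, the leukocyte surface phosphatase CD45, at 108 FPKM, against at most 0.0658 FPKM in the other 5 lines. PDGFRB, in a merged locus, ran from 2.15 FPKM in CHP134 to 16.9 FPKM in BE(2)-C and was at 14.1 FPKM in SK-N-AS. The epithelial marker EPCAM was at most 0.256 FPKM in every line. The lymphocyte markers CD3E and CD79A had no locus, so that the leukocyte signal in SK-N-AS rests on PTPRC alone. The part of this signal in the results was not tested. MYCN, MXD4 and MNT are also given without SK-N-AS, MYC could not be tested without it, and the pathway lists were not refitted.

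Of the 10 genes, 9 reached 1 FPKM in at least 2 lines. These were tested on log2(FPKM + 0.5) in limma along with all other such loci, 12870 in total. MYCN was called higher in the MYCN-amplified lines and MYC was called lower, a call being an absolute log2 fold change above 1 with a Benjamini-Hochberg adjusted p below 0.05. No other member passed the test. Over all tested loci, 0.14% were called higher and 0.365% lower. In MYCN and MNT, all 4 MYCN-amplified lines lay above both other lines, as in 10.5% of all tested loci. In MYC, MXD4 and MXI1 they lay below both, as in 16.4% of all tested loci. Both called members reached 1 FPKM in 1 group only, MYCN in the amplified lines and MYC in the others, so that each could enter the test only in the direction it was called. In bulk RNA, fewer cells with a transcript and less of it per cell cannot be told apart.

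**Figure D1:**
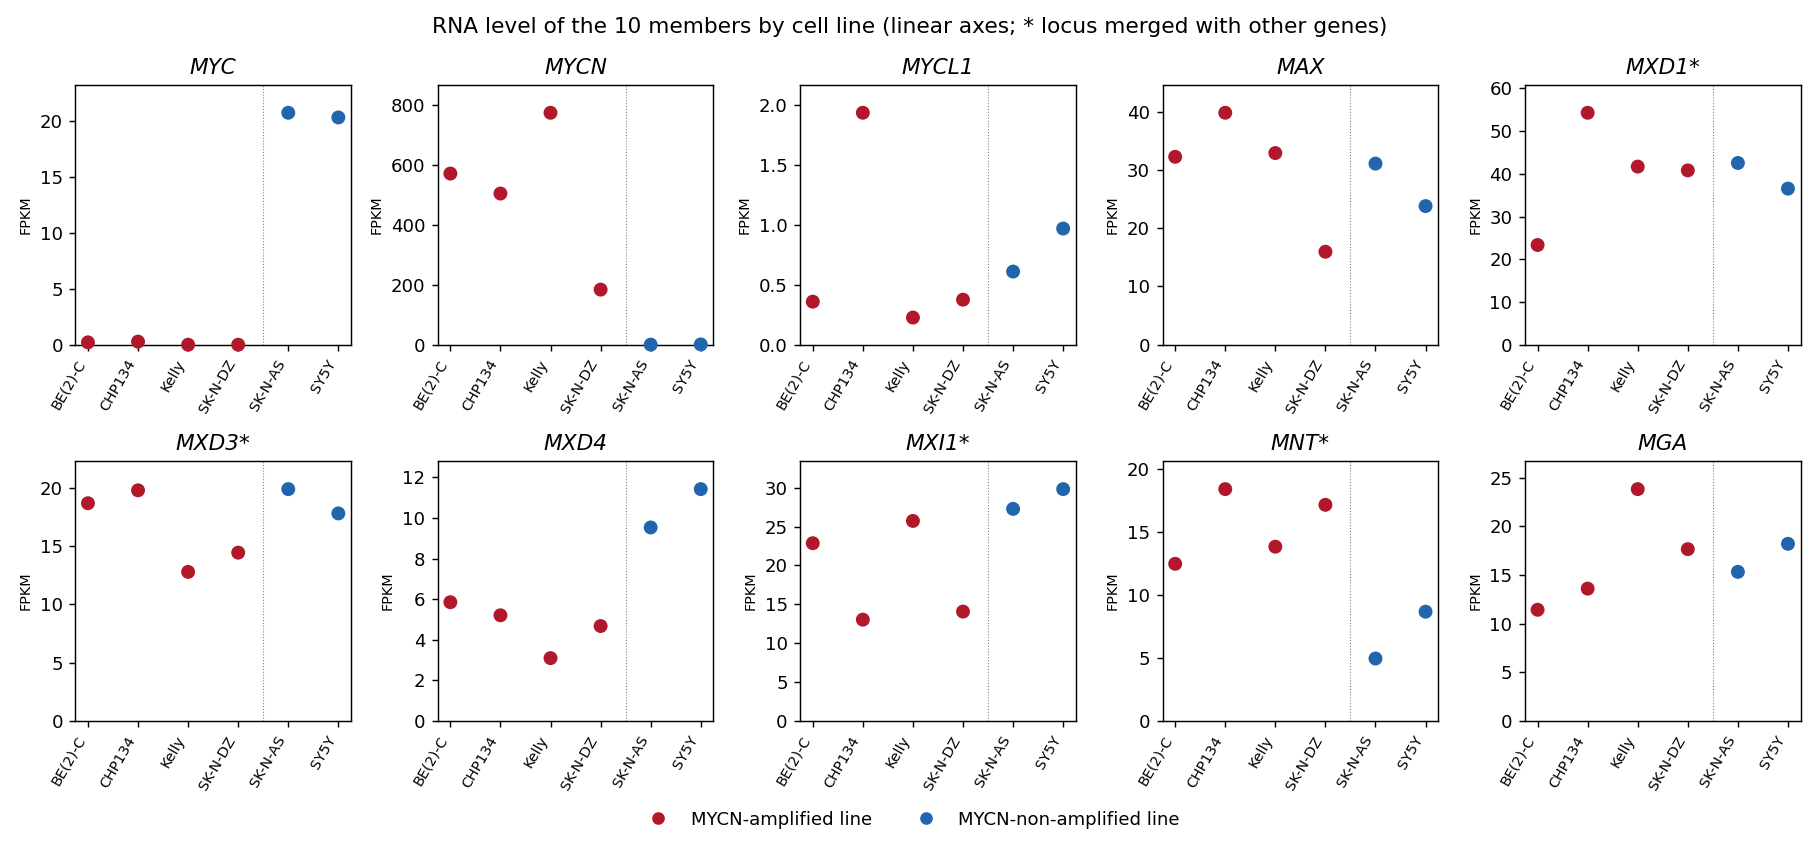
Level in FPKM (vertical axis, linear, from 0) of each of the 10 members in each cell line (horizontal axis), 1 point per line, red for MYCN-amplified and blue for MYCN-non-amplified lines. MYCN lies at 184 to 774 FPKM in the 4 amplified lines and MYC at 20.7 and 20.3 FPKM in the 2 others, while MAX, MXD1, MXD3 and MGA overlap between groups.

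MYCN, the family member that gives the amplified group its name, was at 571 FPKM in BE(2)-C, 505 in CHP134, 774 in Kelly and 184 in SK-N-DZ, against 0.208 FPKM for SK-N-AS and 0.921 FPKM for SY5Y. The groups did not overlap, and SK-N-DZ had the lowest level of the amplified lines, with 4.21-fold between it and Kelly. MYCN ranked between 117 and 321 from the top of the named loci in the amplified lines, whereas 11.3% of named loci were below it in SK-N-AS, with 24.3% in SY5Y. The log2 fold change was 8.81 (standard error 0.59, 95% interval 7.44 to 10.18, adjusted p = 0.0029 from limma), and the locus ranked 3 of 12870 by p. The log2 fold change was 8.31 without SK-N-AS and 9.32 without SY5Y, where a single non-amplified line is left and gives no spread. The call was lost when only the 4 lines grown in DMEM were compared (8.34, adjusted p = 0.124).

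The MYCN locus is listed at 16060521 to 16087129 of chromosome 2 in hg19. In GENCODE 44 on that build the gene itself spans 16080672 to 16087129 on the plus strand, with 3 exons in its longest transcripts. MYCNOS, an antisense noncoding RNA with its own row in the table, is listed over the same interval as MYCN. It shares 98 bases of exon with MYCN, and these reads cannot be separated because the library kit does not mark strand. The noncoding gene MYCNUT starts at 16060521 on the strand of MYCN, within the listed interval. MYCNOS was at 87.9 FPKM in BE(2)-C, 167 in CHP134, 161 in Kelly and 52.8 in SK-N-DZ, against 0.164 FPKM for SK-N-AS and 0.209 FPKM for SY5Y, and rose by 7.27 on the log2 scale (standard error 0.50, adjusted p = 0.0029 from limma). MYCNOS, too, reached 1 FPKM in the amplified lines only, and SK-N-DZ was again the lowest of them. Of the other neighbours, the RNA helicase gene DDX1 was at 10560 FPKM in CHP134 and 3295 in SK-N-DZ but at 95.1 in BE(2)-C and 110.4 in Kelly, against 43.3 for SK-N-AS and 48.5 for SY5Y. DDX1 did not pass the test (4.07, standard error 1.91, adjusted p = 0.371 from limma). NBAS, a gene of vesicle transport, was likewise highest in CHP134 (83.9 FPKM) and SK-N-DZ (81.4 FPKM), in a locus merged with RP11-32P22.1. The order of the amplified lines therefore differed between MYCN and these neighbours.

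The promoter of MYCN is shown because this gene had the largest difference. The 300 bases run from 250 before to 50 after the start site, from RefSeq on GRCh38.p14, chr2:15940300-15940599, plus strand. Capitals mark letters read as an E2F motif, TTTGGCGC on the given strand and TTTCGCGC on the other, which overlap. This motif was looked for after the sequence was seen, and at least 1 of its forms on either strand is in 1.15% of 35116 RefSeq promoter windows of this length. Of the 9 members found in the RefSeq promoter table, MGA also has a window that holds it, and the other 7 do not. MYC was not among the 9 and was not searched. Some members have more than 1 window, whereas the 1.15% is a share of single windows. The E-box CACGTG is not among the letters of the MYCN window.
MYCN: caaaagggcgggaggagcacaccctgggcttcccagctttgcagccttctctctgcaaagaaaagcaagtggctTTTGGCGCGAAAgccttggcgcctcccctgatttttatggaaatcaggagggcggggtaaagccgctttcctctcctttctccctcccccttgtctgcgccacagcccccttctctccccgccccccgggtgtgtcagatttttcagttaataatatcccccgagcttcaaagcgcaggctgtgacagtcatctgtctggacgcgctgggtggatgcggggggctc

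MYC, the founding member of the family, showed the opposite pattern to MYCN. It was at 0.209 FPKM in BE(2)-C and 0.276 FPKM in CHP134, with a listed value of 0 in both Kelly and SK-N-DZ, against 20.7 FPKM for SK-N-AS and 20.3 FPKM for SY5Y. The MYCN-non-amplified lines differed little from each other, and 78.1% and 79.7% of named loci lay below MYC in SK-N-AS and SY5Y. The log2 fold change was -5.11 (standard error 0.41, 95% interval -6.07 to -4.14, adjusted p = 0.00562 from limma). Its size depends on the pseudocount, at -3.41 with 2 and -6.59 with the smallest one tried. The call was lost with a minimum of 5 FPKM (-5.11, adjusted p = 0.0875) and among the DMEM lines alone (-5.14, adjusted p = 0.129, limma), at nearly the same fold change. When either non-amplified line was left out, MYC no longer reached the minimum for testing. The locus is listed at 128747680 to 128753674 of chromosome 8 in hg19 and shares 194 exon bases with CASC11 on the opposite strand.

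MYCL1 (now MYCL), the third paralog, was low in every line. It was at 0.358 FPKM in BE(2)-C, 1.93 in CHP134, 0.226 in Kelly and 0.375 in SK-N-DZ, against 0.609 FPKM for SK-N-AS and 0.967 FPKM for SY5Y. CHP134 alone reached 1 FPKM, so that MYCL1 was not tested with the other loci. Without a minimum level its log2 fold change was -0.25 (adjusted p = 0.855 from limma). Its position in hg19 is 40361098 to 40367928 of chromosome 1.

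The sum of the 3 paralogs was set by 1 gene in every line. MYCN made up 99.6% to 99.97% of the summed FPKM in the amplified lines, and MYC made up 96.2% of it in SK-N-AS and 91.5% of it in SY5Y. The sum averaged 509 ± 245 FPKM in the amplified lines (SD, n = 4) and was 21.5 FPKM in SK-N-AS and 22.2 FPKM in SY5Y. The lowest amplified line, SK-N-DZ at 184 FPKM, was thus 8.31-fold above the higher of the others. MYCN in Kelly was 37.4-fold above MYC in SK-N-AS. The high MYC RNA of the non-amplified lines was therefore well below the MYCN RNA of each amplified line on the same inferred per-length scale. The 8.31-fold and 37.4-fold ratios are across lines and were not rescaled. Sums over all loci were 778472 FPKM in SK-N-DZ, 847301 in Kelly, 1305116 in SK-N-AS and 977301 in SY5Y.

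MAX, the shared partner of all these proteins, was present in every line and did not pass the test. It was at 32.3 FPKM in BE(2)-C, 39.8 in CHP134, 32.9 in Kelly and 16.0 in SK-N-DZ, against 31.1 FPKM for SK-N-AS and 23.8 FPKM for SY5Y. The groups overlapped, and the highest and the lowest line were both amplified, 2.49-fold apart. The log2 fold change was 0.08 (standard error 0.40, 95% interval -0.85 to 1.01, adjusted p = 0.944 from limma), so that a change of about 2-fold in either direction is within the interval. SK-N-DZ, with the lowest MAX, also had the lowest MYCN among amplified lines. MAX is listed at 65381079 to 65569413 of chromosome 14 in hg19, of which the gene covers 65472892 to 65569413 on the minus strand. Its exons share 822 bases with FNTB on the other strand, and reads from those stretches cannot be assigned. The merged locus of FNTB was lowest in SK-N-DZ (19.4 FPKM) and highest in CHP134 (39.3 FPKM), the same lines as for MAX. The part of FNTB reads in the MAX values, and in ratios to MAX, was not tested.

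Set against MAX, family RNA differed far more between groups than MAX did. The summed paralogs per MAX were 17.7 in BE(2)-C, 12.7 in CHP134, 23.5 in Kelly and 11.5 in SK-N-DZ, against 0.693 for SK-N-AS and 0.932 for SY5Y, as ratios of FPKM. The amplified lines thus had many times more paralog RNA than MAX RNA, and SK-N-AS and SY5Y had slightly less. SK-N-DZ had the lowest MYCN of the 4 amplified lines, but its ratio to MAX was close to that of CHP134.

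**Figure D2:**
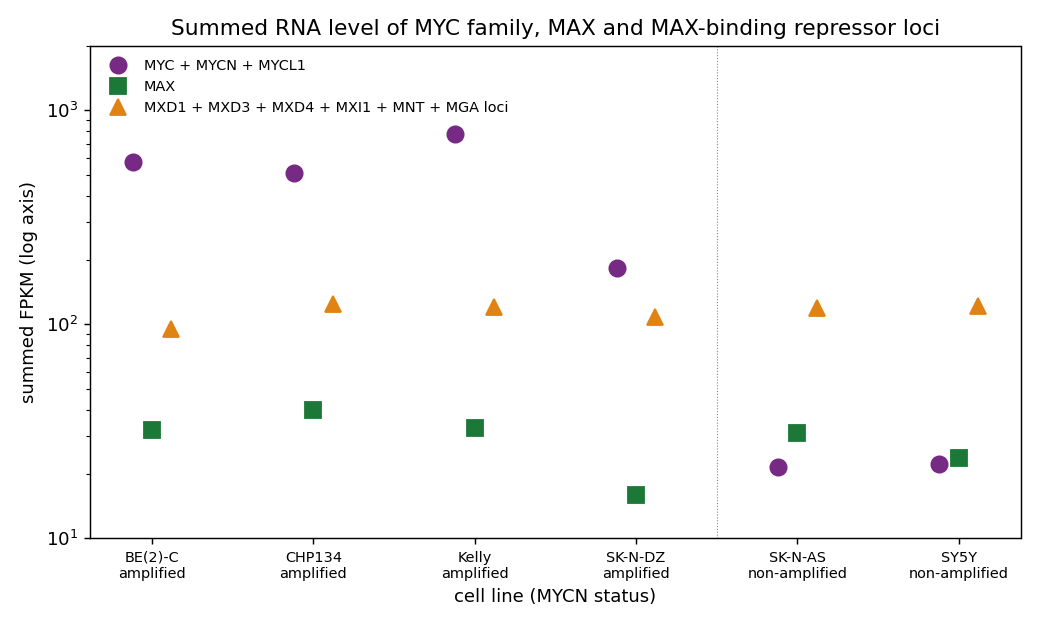
Summed FPKM on a log axis for MYC, MYCN and MYCL1 (circles), for MAX (squares) and for the 6 repressor loci (triangles) in each cell line, with the 4 MYCN-amplified lines on the left. The circles lie above the triangles in the amplified lines and below the squares in SK-N-AS and SY5Y, while the triangles stay between 94.6 and 124.3 FPKM.

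Among the MXD repressors, MXD4 was lower in each of the 4 amplified lines, without passing the test. It was at 5.85 FPKM in BE(2)-C, 5.21 in CHP134, 3.10 in Kelly and 4.68 in SK-N-DZ, against 9.54 FPKM for SK-N-AS and 11.4 FPKM for SY5Y. The groups did not overlap, and the mean was 4.71 ± 1.18 FPKM in the amplified lines (SD, n = 4). The log2 fold change was -1.10 (standard error 0.35, 95% interval -1.91 to -0.29, adjusted p = 0.22 from limma). Leaving out 1 line at a time gave values from -1.23, without SK-N-AS, to -0.93, without Kelly. MXD4 has a locus of its own at 2249159 to 2264021 of chromosome 4 in hg19.

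MXD1, MXD3 and MXI1 are each listed in a locus merged with a further gene, so that their values are those of the merged locus. The MXI1 locus, merged with RP11-549L6.2, was at 22.9 FPKM in BE(2)-C, 13.0 in CHP134, 25.7 in Kelly and 14.1 in SK-N-DZ, against 27.3 FPKM for SK-N-AS and 29.8 FPKM for SY5Y. The groups did not overlap, but Kelly lay close to SK-N-AS, and the log2 fold change was -0.64 (standard error 0.36, 95% interval -1.47 to 0.20, adjusted p = 0.441 from limma). Within the amplified group, BE(2)-C and Kelly lay above CHP134 and SK-N-DZ in this locus. It lies at 111967363 to 112047123 of chromosome 10 in hg19.

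The MXD1 locus was the highest of all the repressor loci in each line, and it also holds SNRNP27, which encodes a splicing protein. It was at 23.3 FPKM in BE(2)-C, 54.3 in CHP134, 41.7 in Kelly and 40.8 in SK-N-DZ, against 42.5 FPKM for SK-N-AS and 36.5 FPKM for SY5Y. BE(2)-C was the lowest line and CHP134 the highest, and the log2 fold change was -0.04 (standard error 0.36, 95% interval -0.89 to 0.81). The MXD3 locus, merged with the small GTPase gene RAB24, was at 18.7 FPKM in BE(2)-C, 19.8 in CHP134, 12.8 in Kelly and 14.4 in SK-N-DZ, against 19.9 FPKM for SK-N-AS and 17.8 FPKM for SY5Y. Its 6 values differed by at most 1.55-fold, the smallest range among the members (log2 fold change -0.21, standard error 0.29, 95% interval -0.90 to 0.47). MXD3 shares 926 exon bases with RAB24 and 1148 with PRELID1 on the opposite strand, which was at 27.1 to 54.3 FPKM, and reads from those stretches cannot be assigned. In hg19 the MXD1 locus lies at 70120692 to 70170077 of chromosome 2 and the MXD3 locus at 176728199 to 176739758 of chromosome 5.

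MNT, a repressor that pairs with MAX and, like the MXD proteins, binds SIN3, was listed in a locus with METTL16 and RP1-59D14.3. This locus was higher in every amplified line but did not pass the test. It was at 12.5 FPKM in BE(2)-C, 18.4 in CHP134, 13.9 in Kelly and 17.2 in SK-N-DZ, against 4.97 FPKM for SK-N-AS and 8.69 FPKM for SY5Y. The log2 fold change was 1.16 (standard error 0.34, 95% interval 0.37 to 1.94, adjusted p = 0.203 from limma). It was 0.78 without SK-N-AS and 1.53 without SY5Y. METTL16 encodes an RNA methyltransferase, lies next to MNT on the same strand and has 8934 bases of exon, against 8701 for MNT, so that the part of each gene in the difference cannot be told apart. MNT also shares 1065 exon bases with a noncoding gene on the opposite strand. The merged locus spans 2287311 to 2415194 of chromosome 17 in hg19.

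MGA, a large protein that pairs with MAX and also carries a T-box DNA-binding domain, showed no group difference that passed the test. It was at 11.4 FPKM in BE(2)-C, 13.6 in CHP134, 23.8 in Kelly and 17.7 in SK-N-DZ, against 15.3 FPKM for SK-N-AS and 18.2 FPKM for SY5Y. Both ends of the range were amplified lines, and the log2 fold change was -0.06 (standard error 0.35, 95% interval -0.88 to 0.76, adjusted p = 0.95 from limma). MGA stood at or above MAX only in SK-N-DZ, where MAX was lowest (1.11 MGA per MAX, against 0.341 to 0.765 in the other 5 lines). Its position in hg19 is 41913422 to 42063089 of chromosome 15, and noncoding genes on the opposite strand share 165 and 510 of its exon bases.

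**Figure D3:**
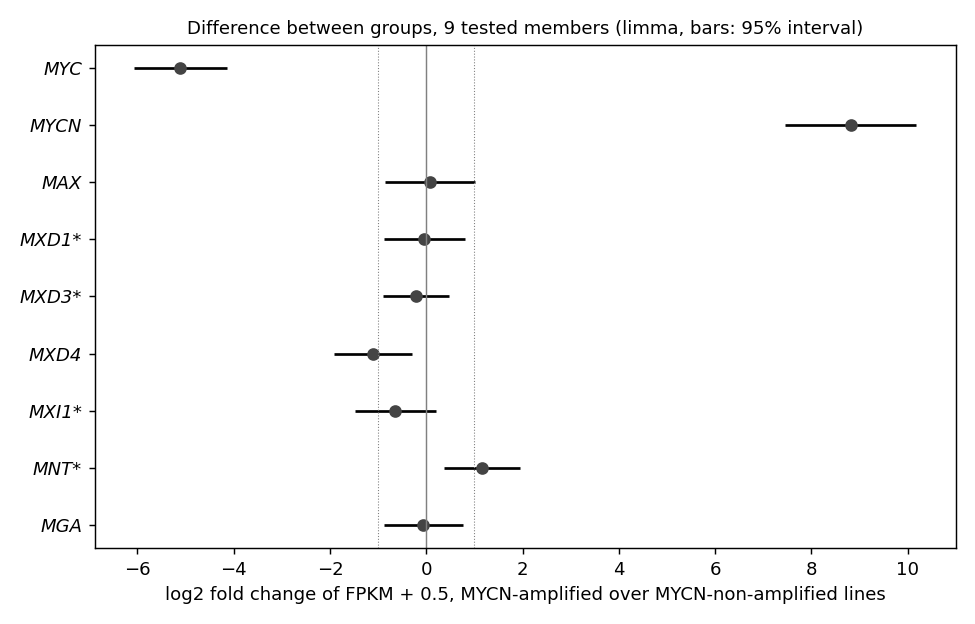
Log2 fold change of FPKM + 0.5, MYCN-amplified over MYCN-non-amplified lines (horizontal axis), for the 9 tested members (vertical axis), with points for the estimate and bars for limma's 95% interval. Asterisks mark merged loci and dotted lines a change of 1 in either direction. MYCN (8.81) and MYC (-5.11) lie far from 0, the intervals of MXD4 and MNT leave out 0 without a call after adjustment, and the other 5 intervals include 0.

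Promoter windows of MXD4 and MNT are shown because they were the members, of the 9 found in the RefSeq promoter table, that hold the E-box CACGTG. MYC was not among the 9 and was not searched for this motif. This motif reads the same on both strands and is in 7.26% of the 35116 windows. That is a share of single windows, whereas some members have more than 1. Both windows run from 250 bases before to 50 after the start site on GRCh38.p14 and are given along the minus strand, with the E-box in capitals. The MXD4 window is chr4:2262060-2262359, where the E-box starts at -238, counted from the start site at 0. The MNT window is chr17:2401011-2401310, where it starts at -193. The match is a description of letters, and no binding was measured here.
MXD4: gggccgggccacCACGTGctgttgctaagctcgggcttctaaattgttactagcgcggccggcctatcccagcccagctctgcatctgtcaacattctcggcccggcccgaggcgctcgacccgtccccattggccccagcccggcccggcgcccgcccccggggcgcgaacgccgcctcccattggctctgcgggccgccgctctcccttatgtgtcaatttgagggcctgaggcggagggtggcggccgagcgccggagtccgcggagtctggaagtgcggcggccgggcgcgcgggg
MNT: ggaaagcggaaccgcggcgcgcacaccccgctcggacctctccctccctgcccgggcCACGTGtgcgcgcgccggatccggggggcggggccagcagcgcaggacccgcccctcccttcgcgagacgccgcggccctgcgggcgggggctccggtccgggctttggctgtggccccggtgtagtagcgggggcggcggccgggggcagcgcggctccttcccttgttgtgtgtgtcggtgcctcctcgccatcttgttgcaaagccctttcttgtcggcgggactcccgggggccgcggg

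The repressor loci together varied little. The summed level of MXD1, MXD3, MXD4, MXI1, MNT and MGA loci was 94.6 FPKM in BE(2)-C, 124.3 in CHP134, 121 in Kelly and 108.8 in SK-N-DZ, against 119.5 FPKM for SK-N-AS and 122 FPKM for SY5Y. The highest and lowest of these sums were 1.31-fold apart, although 4 of the 6 loci also hold other genes. The MYC family sum was 1.69 to 6.4 times the repressor sum in the amplified lines, against 0.180 and 0.181 times in SK-N-AS and SY5Y. In the order of levels, MYCN came first in all 4 amplified lines and last in both non-amplified lines, and MYC came last in all 4 amplified lines. The MXD1 locus came first in both non-amplified lines, where MAX, MXI1 and MYC followed at 20.3 to 31.1 FPKM. Single libraries give no spread within a line, so that neighbours in these orders cannot be told apart.

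Beyond the 10 genes, lists of pathway genes were read from the same fit. Calls were rare over all tested loci (0.14% higher, 0.365% lower), so that a list without a call is near that share. The MLX branch, in which MLX takes the place of MAX, had 2 tested loci, MLX (0.27) and MLXIP (0.06, the glucose-responsive MondoA), and neither was called. None of 12 loci of SIN3 and NCOR corepressors was called (median log2 fold change 0.18), with SIN3A, the scaffold that MXD proteins bind, at 9.04, 7.00, 7.77 and 11.0 FPKM in BE(2)-C, CHP134, Kelly and SK-N-DZ, against 16.2 and 13.3 FPKM for SK-N-AS and SY5Y (-0.74, adjusted p = 0.321). In the same list NCOR1, in a locus merged with U6, stood at 0.69, and the deacetylases HDAC2 at 0.92 and HDAC3, in a merged locus, at -0.56. None of 10 loci of the Polycomb complex that holds MGA was called (median 0.15). Its member L3MBTL2, a histone-binding protein, was at 14.2, 9.85, 18.7 and 8.72 FPKM in BE(2)-C, CHP134, Kelly and SK-N-DZ, against 3.36 and 3.99 FPKM for SK-N-AS and SY5Y (1.62, standard error 0.38, adjusted p = 0.143 from limma). RYBP (-0.96), WDR5 (0.63) and PCGF6 (0.61) of this complex were further from the threshold. The groups did not overlap at L3MBTL2, RYBP and WDR5. Of the 10 loci, all 4 amplified values lay above both others in 2 and below in 1, against 10.5% above and 16.4% below among all tested loci.

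Genes for MYC cofactors and for control of MYC protein were also without a call, as were nearly all tested loci (0.14% called higher, 0.365% lower). Of 18 loci of coactivators and cofactors (median 0.11), EP300, a histone acetyltransferase, had the smallest p (0.94, adjusted p = 0.277 from limma), followed by CCNT1 (-0.59), BIN1 (-0.59) and RUVBL2 (-0.74). Of 16 loci of protein stability (median 0.19), AURKA, a mitotic kinase whose protein shields N-Myc from degradation, was at 43.4, 45.6, 58.2 and 57.3 FPKM in BE(2)-C, CHP134, Kelly and SK-N-DZ, against 38.5 and 21.3 FPKM for SK-N-AS and SY5Y (0.81, adjusted p = 0.299). PLK1 (0.78), USP7 (0.56) and SKP2 (0.63) also had all 4 amplified values above both others. This held for 5 of the 16 loci of protein stability, against 10.5% of all tested loci.

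Known E-box targets of MYC and MYCN were mostly on the higher side in the amplified lines, but none was called. Of 28 tested loci, 23 had a log2 fold change above 0, and the median was 0.57, against -0.09 for all tested loci. In 13 of them all 4 amplified values lay above both others, and in 0 below, against 10.5% above and 16.4% below among all tested loci. At unadjusted p below 0.05, limma gave 10 higher and 0 lower, against 705 higher and 1218 lower among all tested loci. ODC1, the rate-limiting enzyme of polyamine synthesis, was at 167, 308, 357 and 212 FPKM in BE(2)-C, CHP134, Kelly and SK-N-DZ, against 41.5 and 86.9 FPKM for SK-N-AS and SY5Y (2.05, standard error 0.42, adjusted p = 0.114 from limma). TFAP4, a transcription factor, stood at 1.23, APEX1, a DNA repair enzyme, at 1.02, and the mitochondrial chaperone subunit HSPE1 at 1.24. LDHA, lactate dehydrogenase, and POLR1B, each in a merged locus, were the lowest of the 5 loci with a negative value, at -0.73 and -0.59. LDHA was at 11.3 FPKM in BE(2)-C and at 249 to 610 FPKM in the other 5 lines.

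Genes described as repressed by MYC proteins were mostly on the lower side, again without a call. Of 11 tested loci, 9 had a negative log2 fold change (median -1.35), and all 4 amplified values lay below both others in 5 and above in 0, against 16.4% below and 10.5% above among all tested loci. At unadjusted p below 0.05, limma gave 5 lower and 0 higher, against 1218 lower and 705 higher among all tested loci. TGFBR2 and CDKN1C, an inhibitor of the cell cycle, reached 1 FPKM in the non-amplified lines only and could enter the counts only as lower. Among the other 9 loci, 3 were lower at that p and 3 lay below. DKK1, a secreted Wnt inhibitor, was at 4.76, 9.80, 14.5 and 0.781 FPKM in BE(2)-C, CHP134, Kelly and SK-N-DZ, against 59.5 and 304.2 FPKM for SK-N-AS and SY5Y (-4.57, standard error 1.04, adjusted p = 0.131 from limma). TGFBR2, a TGF-beta receptor, stood at -2.26, DKK3, related to DKK1, at -1.95, and NDRG2, in a merged locus, at -1.35. CDKN1A, which encodes the cell cycle inhibitor p21, lies in a locus merged with several genes and stood at 0.33. All lists were written with earlier results of these data known, so that their medians describe the lists and are no independent evidence of their direction.

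**Figure D4:**
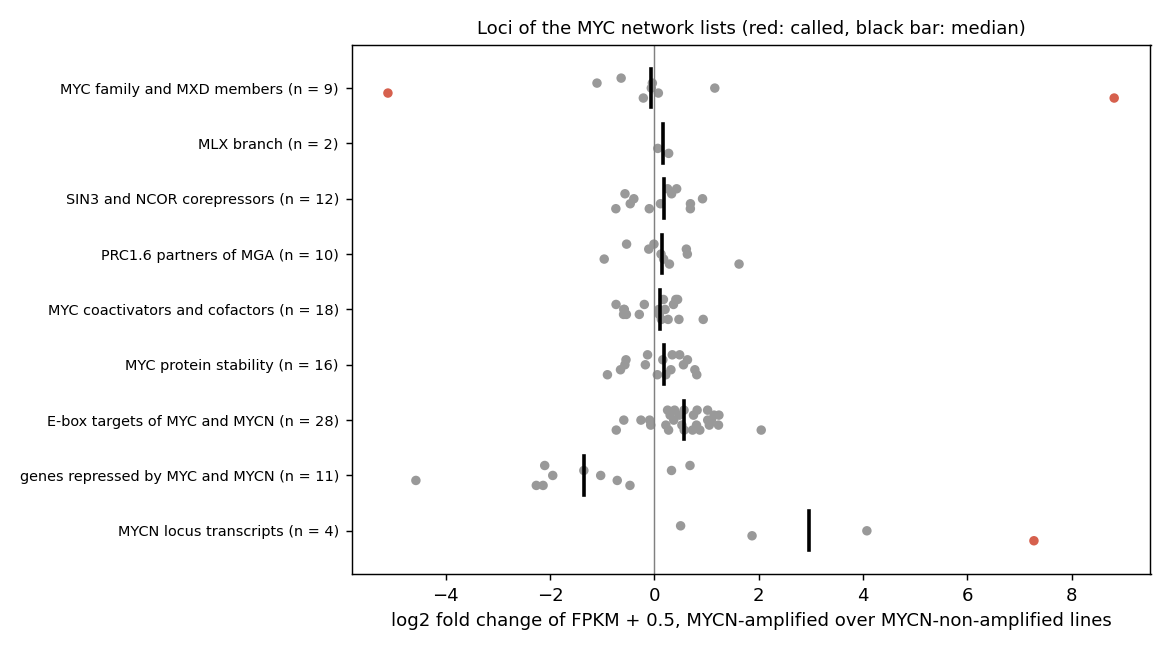
Log2 fold change of FPKM + 0.5, MYCN-amplified over MYCN-non-amplified lines (horizontal axis), for each tested locus of 9 lists (rows, n = tested loci), with called loci in red and the median of each list as a black bar. Red points are MYC, MYCN and MYCNOS only, and the medians are 0.57 for E-box targets and -1.35 for repressed genes.

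The loci whose pattern over the 6 lines was most like that of each tested member were read from 10206 tested loci of 1 gene, by Pearson's r of log2(FPKM + 0.5). These correlations are descriptions over 6 points that share the same libraries, and the best of many will be high. For MYCN they were RP4-616B8.4 (r = 0.995), MYCNOS, which is listed over the same interval (0.994), and PFAS, an enzyme of purine synthesis (0.992). PFAS was at 36.6, 43.7, 51.4 and 33.5 FPKM in BE(2)-C, CHP134, Kelly and SK-N-DZ, against 9.41 and 11.6 FPKM for SK-N-AS and SY5Y. For MYC they were GREM1, a secreted BMP antagonist (0.998), the potassium channel gene KCNK1 (0.997) and HERC6 (0.997). GREM1, KCNK1 and HERC6 reached 1 FPKM in the non-amplified lines only, as MYC did. RP4-616B8.4 and MYCNOS reached it in the amplified lines only, as MYCN did, so that r for these loci largely restates the grouping. KCNK1 was at 0.0890, 0.256 and 0.112 FPKM in BE(2)-C, CHP134 and Kelly and is listed at 0 in SK-N-DZ, against 12.1 and 10.4 FPKM for SK-N-AS and SY5Y.

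For the other members the closest loci followed differences between single lines as well. MAX was most like ILVBL (0.982), AC068657.2 (0.976) and RINL (0.972), which were all lowest in SK-N-DZ. The MXD1 locus was most like TOE1 (0.998), ARG2 (0.990) and PRPF19 (0.982), which were lowest in BE(2)-C and highest in CHP134. The MXD3 locus was most like ERCC1 (0.992), FAM86C2P (0.989) and CDCA4 (0.988), MXD4 like TCTN1 (0.988), C5 (0.985) and PLOD3 (0.984), and the MXI1 locus like STRN (0.995), MAP1LC3A (0.989) and SSPN (0.988). The MNT locus was most like MYT1, a neural zinc finger gene (0.996), ZNF519 (0.991) and GLOD4 (0.990). GLOD4 is listed on chromosome 17, as MNT is, at 660337 to 696306 in hg19, and was at 43.3, 75.4, 47.3 and 64.3 FPKM in BE(2)-C, CHP134, Kelly and SK-N-DZ, against 19.2 and 33.7 FPKM for SK-N-AS and SY5Y. MGA was most like COMMD7 (0.976), ZNF667 (0.970) and RP11-408B11.2 (0.966), all highest in Kelly.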

How the data were processed

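Total RNA was depleted of ribosomal RNA and sequenced as 1 library for each of 6 cell lines. The line came from the sample labels, where Kelly is spelled Kelley, and MYCN status from the study's methods. The authors describe alignment to hg19 with STAR, then counts on Gencode V18, TMM and edgeR. The deposited table holds other values, on loci that can merge several genes, and names no unit. FPKM was inferred for these deposited values, which are not whole and have unequal sums, and no count model was run. 1 line of the table was emptied for this work and 0 value columns were left unused.

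Loci with a gene name and at least 1 FPKM in at least 2 lines (12870) entered 1 fit, without covariates, of log2(FPKM + 0.5) by lmFit and eBayes with a trend (limma 3.58.1, R 4.3.3), a step checked on simulated data. The fold change understates changes near 0. The genes named are the members, up to 4 loci with the smallest p in each list, and the 3 single-gene loci most like each member. LDHA, POLR1B, CDKN1A and CDKN1C were chosen after their values were seen. Overlaps were read from GENCODE 44 on hg19 with Python 3.11.15. The members and lists were chosen with earlier results of these data known. Alternatives varied the pseudocount, filter, scaling, variance trend, medium and each line.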

Additional observations from a re-analysis of the deposited data

Results flagged for a closer look

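MYCL1 in CHP134 stood apart from the other MYCN-amplified lines. It was at 1.93 FPKM in CHP134 and at 0.226 to 0.375 FPKM in BE(2)-C, Kelly and SK-N-DZ, and its gap to the next line took 0.846 of the group's range on log2(FPKM + 0.5), above Dixon's 95% critical value for 4 samples. Of 10 members examined this was the only one past that value, and chance passes about 1 in 20 groups. MYCL1 was near the low end of the scale in every line.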

How the results depend on the processing

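MYCN was called higher under every alternative run except with the 4 lines grown in DMEM alone, where 0 members were called higher and 0 lower. MYC kept its call except there and with a minimum of 5 FPKM, where 0 members were called lower. With 1 line left out, 0 to 1 members were called lower, 0 without SK-N-AS or SY5Y, since MYC was then not tested. Fits without a trend, without a filter and with either other pseudocount kept the direction and the call of all 9 tested members. Members with values near 0 changed sign. MXD1 was at 0.049 with median-ratio size factors and between -0.21 and 0.20 with 1 line left out. MGA was at 0.028 with median-ratio size factors, at 0.030 with quantile normalization, and between -0.25 and 0.097 with 1 line left out. MAX was at -0.25 in DMEM alone and between -0.11 and 0.35 with 1 line left out. The median of all tested loci was -0.09, -0.01 with median-ratio size factors and 0.06 with quantile normalization, a shift of over 0.1 in the last case. Over all loci, calls numbered 18 higher and 47 lower, against 8 and 7 with the smallest pseudocount, 6 and 5 with a minimum of 5 FPKM, 17 and 85 without a trend, 24 and 32 with quantile normalization, and 1 and 0 in DMEM alone. With 1 amplified line left out they numbered 6 to 18 higher and 9 to 44 lower. No paired analysis was possible because the groups are made of different cell lines, with 1 library each. Depth is unknown, so that levels near 0, such as those of MYC in the amplified lines and MYCL1, have no counting interval.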
